A study of Rattus norvegicus with 30 samples.

Results

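In rat kidney, 164 of 40071 annotated transcripts were on in several animals and off in several others, by their estimated counts. A transcript was taken as on in a library where it had at least 2 CPM (estimated counts scaled to the library's transcript total). It was taken as off where its estimated count was under 0.5, and as between otherwise. The 164 on/off transcripts were off in at least 5 of the 30 libraries and on in at least 5 others, and they make up 0.409% of all transcripts. They are 1.00% of the 16331 transcripts that were on in at least 5 libraries. The transcripts were selected on these measured values, the estimated counts and CPM of the same 30 libraries, so that their being on and off is a description and not a finding. A single further transcript is not analysed here.

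The kidneys came from 30 Sprague-Dawley rats, in 6 groups of 5. At 10 h the groups were vehicle (saline, 1 ml/kg), a low dose of 0.25 mg/kg mercury chloride (HgCl2) and a high dose of 0.5 mg/kg HgCl2, and the same 3 groups were taken at 34 h. Poly-A RNA of the whole powdered kidney was sequenced, 1 library to an animal, so that a level averages over all parts and cell types of the organ. The sex and age of the animals and the route of the dose were not stated in the labels.

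HgCl2 is a salt that injures the proximal tubule, the part of the nephron that takes back most of the filtered solutes. Sprague-Dawley is an outbred stock: its animals carry different alleles at many genes, unlike the animals of an inbred strain. A gene can give several transcripts that differ in their exons, and related genes can share long stretches of sequence. The counting method used, kallisto, compares each read pair with all targets, here annotated transcripts and genomic intervals. A pair that fits several of them is split among them by an estimate, so that a transcript's count can have decimals. Where 2 targets differ at few positions, a few reads, or an allele at those positions, can decide which of them takes the shared reads. Presence or absence of an RNA and a shift of shared reads cannot be told apart in estimated counts. The files pair no transcript with a gene. No gene name or sequence is given for them, and the labelled tissue could not be checked against kidney marker genes.

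Transcript totals were 20.2 to 39.1 M estimated counts per library (M, mega), with a median of 30.2 M, so that 2 CPM stood for 40.3 to 78.2 counts. A transcript on in a library therefore rested on at least 40.3 counts. The reads carry no molecular identifiers, and counting error alone understates the error. The libraries were set against the rest of their group over all transcripts with a mean of at least 1 CPM. In replicate 2 of the high dose group at 10 h, 1313 of these 17242 transcripts lay at least 2-fold from the median of the rest of the group. In replicates 3 and 4 of the high dose group at 34 h the number was 1363 and 1523. Replicate 2 of the vehicle group at 10 h had 493. The other 26 libraries had 281 to 852, and the highest of these, 852, was replicate 4 of the low dose group at 10 h. The first 4 of these libraries were taken as apart on earlier results of these data. By this measure replicate 2 of the vehicle group was within the range of the others, while the low dose library was further out and was kept. Values without the 4 are given where they differ.

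None of the on/off transcripts had whole counts throughout. Whole counts in every library, within 1e-06, were found for 0 of the 164, against 6626 of the 16331 transcripts that were on in at least 5 libraries (40.6%). Of those 6626 transcripts, 3 were off in any library at all, in at most 2 libraries each. Of the other 9705, whose counts had decimals, 429 were off in some library and 1.69% were on/off transcripts. The limit of 0.5 counts lets decimals in as off: 80 of the 164 needed them to be chosen, and for those the absence of whole counts follows from the rule. Of the 84 that met the rule with off at exactly 0, whole counts in every library were found for 0. Of the 335 transcripts that were on in at least 5 libraries and at exactly 0 in at least 1, 3 had whole counts in every library.

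Whole counts were less frequent among transcripts that were on in some libraries and off in others. Among the 16677 transcripts that were on in at least 1 library and off in none, the share was 41.8%. Among those that were both on and off somewhere, it was 9.03% of the 454 transcripts whose rarer state was seen in a single library, 5.20% of the 173 with 2 libraries, and 15 of the 136 with 3 libraries. It was 0 of 61 transcripts with 4 libraries, 0 of 145 with 5 to 9, and 0 of 19 with 10 or more. Of the transcripts that were both on and off somewhere, 65 had whole counts throughout and 923 had decimals.

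**Figure D1:**
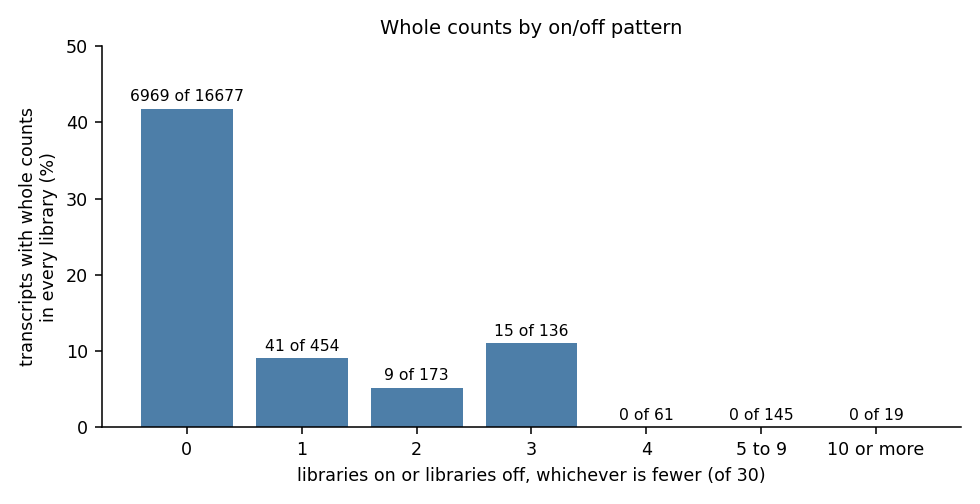
Share of transcripts with whole counts in all 30 libraries (y axis, percent) by the number of libraries on or off, whichever is fewer (x axis). Transcripts on in at least 1 library are shown, and the labels give their numbers. The bar is 41.8% for transcripts that were never off, and 0 from 4 libraries upward. Part of the fall follows from the limit for off, since an off value with decimals excludes whole counts throughout.

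The off values were of 2 kinds. Of the 1639 off values, 835 were exactly 0 (50.9%). The other 804 were small decimals, with a median of 0.000519 counts and a lowest value of 1.02e-08 counts, and 586 of them were under 0.01 counts. Such decimals are not reads: they are the part of shared reads that the estimate assigned to the transcript. The on values had decimals too. Only 56 of the 1821 on values (3.08%) were whole, in 17 of the 164 transcripts.

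The states were spread widely over the libraries. Of the 4920 values, 37.0% were on, 33.3% were off and 29.7% lay between. The transcripts were on in a median of 10 libraries (5 to 23) and off in a median of 9 (5 to 23). Only 2 transcripts had no library between, ENSRNOT00000075249 (on in 22 kidneys and off in 8) and ENSRNOT00000092417 (on in 23 and off in 7). At most 3 libraries lay between for 16 transcripts, and 10 or more for 67. These numbers depend on the limits, which leave a wide class between, and do not show how many transcripts split cleanly into presence and absence. ENSRNOT00000066282 had 10 libraries between, although its levels had a gap from 0.707 to 15.7 CPM.

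Most of the transcripts were of low level even where on. The mean over a transcript's on libraries was 2.26 to 41.4 CPM with a median of 3.86 CPM. It was under 5 CPM for 122 transcripts and at least 10 CPM for 10. Annotated lengths were 348 to 14887 bases with a median of 2606, against a median of 2258 for the transcripts on in at least 5 libraries. The 2 transcripts just inside the CPM limit, ENSRNOT00000089580 and ENSRNOT00000065935, had fifth-highest levels of 2.01 and 2.02 CPM. The 2 just outside, ENSRNOT00000078233 and ENSRNOT00000073955, had 1.997 and 1.986 CPM. On the count limit, the fifth-lowest counts were 0.455 and 0.350 just inside (ENSRNOT00000073341 and ENSRNOT00000057872), and 0.644 and 1 just outside (ENSRNOT00000027574 and ENSRNOT00000043736).

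The states did not follow the groups closely. In every group some animals were on for 78 of the 164 transcripts, and 42 more were on in 5 of the groups. Both states occurred within at least 4 of the groups for 125 transcripts, and within all 6 for 12. All 5 animals of some group were on for 20 transcripts, and all 5 of some group were off for 12. A single transcript, ENSRNOT00000082760, was on in all animals of 1 group and off in all of another. The share of a transcript's variance that lay between the 6 groups had a median of 17.7% in the on/off transcripts. It was 22.6% over all transcripts with a mean of at least 1 CPM. With 6 groups of 5 animals, part of the variance lies between groups even where the groups do not differ. This part was not taken off, so that neither share measures an effect of dose or time. The coefficient of variation over the 30 libraries was 1.10 at the median, against 0.166, which the choice of the transcripts raises.

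**Figure D2:**
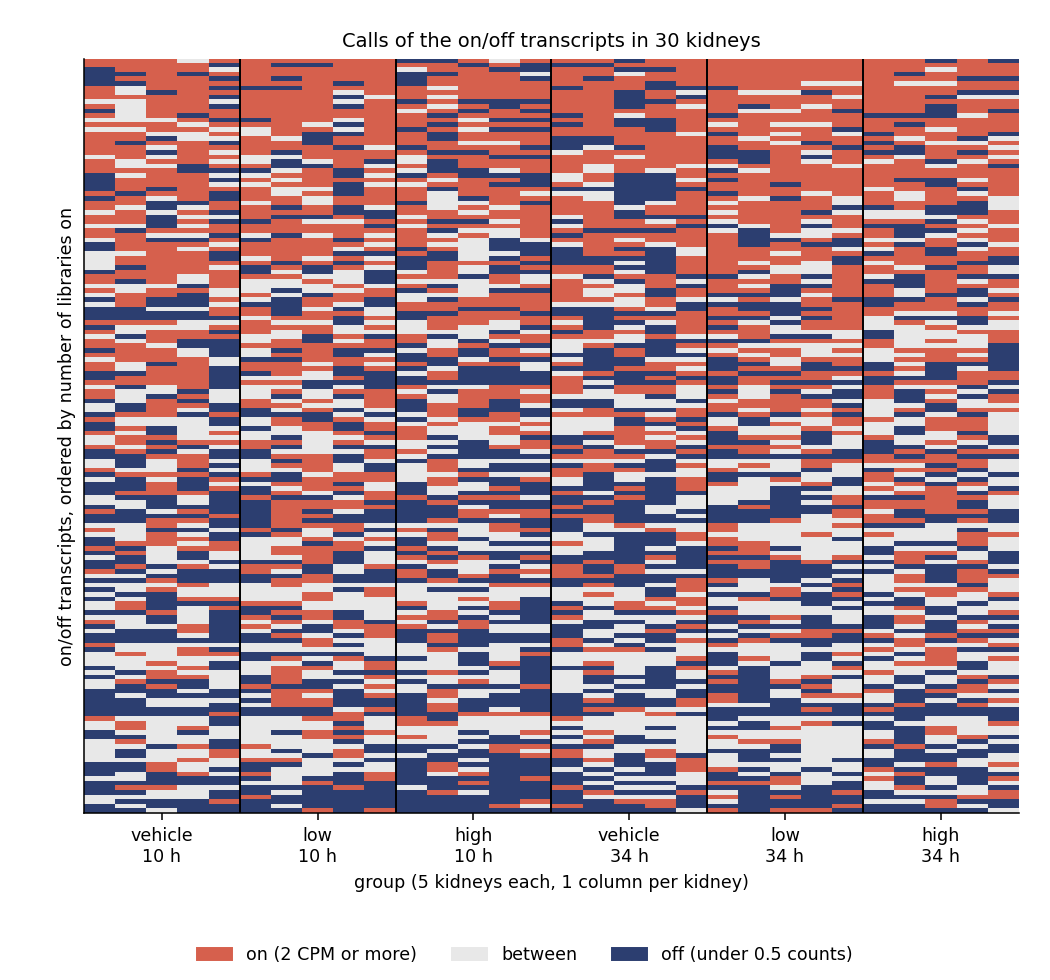
On, between and off states of the 164 transcripts (rows, ordered by the number of libraries on) in 30 kidneys (columns, 5 per group, vehicle, low and high dose at 10 h and then at 34 h). Both states occur within at least 4 of the groups for 125 transcripts.

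Each kidney had its own set. Of the 164 transcripts, 43 to 80 were on in an animal, with a median of 61. At 10 h the number on was 43 to 70 in vehicle kidneys (median 56), 56 to 80 in low dose kidneys (median 70) and 50 to 63 in high dose kidneys (median 58). At 34 h it was 45 to 73 in vehicle (median 60), 58 to 67 in low dose (median 64) and 58 to 67 in high dose kidneys (median 64). These ranges overlapped among all 6 groups.

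Animals of a group were hardly more alike in their states than animals of different groups. Over the transcripts with a call in both animals, the same state was found for 56.1 ± 10.9% in the 60 pairs of animals within a group, against 55.1 ± 8.94% in the 375 pairs across groups (SD over pairs, which share animals). Without the 4 libraries taken as apart, the values were 58.0 ± 10.3% (45 pairs) and 55.3 ± 9.26% (280 pairs). Pairs of a group with neighbouring library numbers had 55.3% (22 pairs). The mean within a group was 54.1% in vehicle, 56.2% in low dose and 56.8% in high dose kidneys at 10 h. At 34 h it was 53.3% in vehicle, 62.0% in low dose and 54.5% in high dose kidneys.

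The high dose group at 10 h held the most and the least alike animals of a group. Its replicate 2 shared 27.8 to 39.7% of states with the other 4 animals, while the 6 pairs among those 4 shared 64.9 to 77.2%. In this animal 12 transcripts were on that were off in the other 4, and 6 were off that were on in the other 4. Among the other 29 libraries, 0 to 4 transcripts were on in an animal and off in the rest of its group, and 0 to 4 were the reverse. Replicate 2 also stood apart over all transcripts. With animals of the high dose group at 34 h it shared 54.4 to 63.9% of states, and with those of the vehicle group at 10 h 29.5 to 63.1%. Whether the animal or its library sets it apart was not tested.

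**Figure D3:**
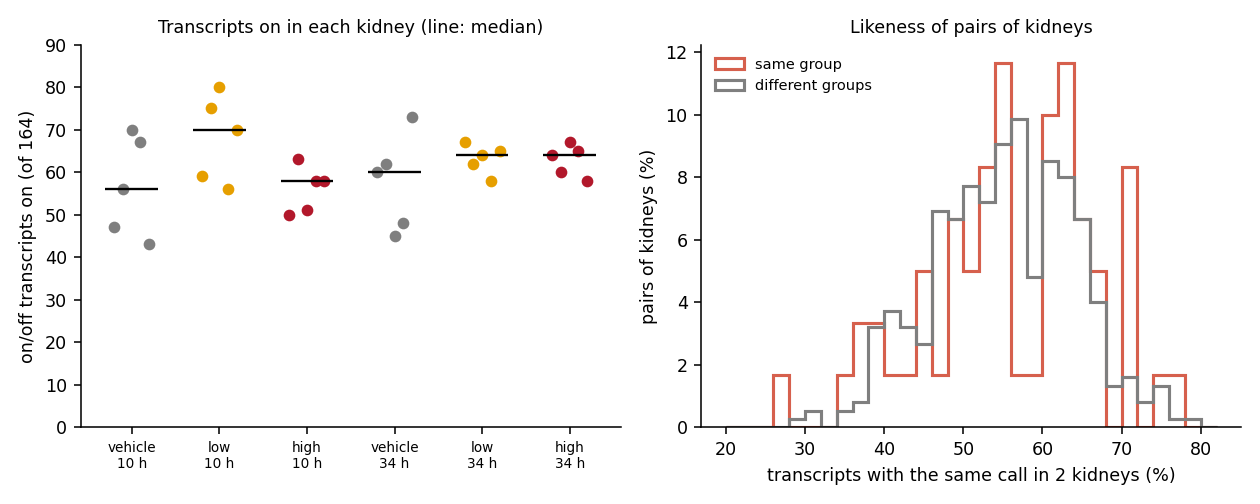
Left, number of the 164 transcripts on in each kidney (points) by group, with the group median (line). Right, share of pairs of kidneys (y axis, percent) by the share of transcripts with the same state in both (x axis), for pairs of a group and of different groups. Numbers on ranged from 43 to 80, and the 2 outlines overlap over most of their range.

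Some transcripts swapped with a neighbour. A partner was said to swap where it was higher in every off library of the transcript than in every on library, and where its rise was 0.5 to 2 times the transcript's own fall. Partners were other on/off transcripts or transcripts with a mean of at least 1 CPM. Genomic intervals, which can also take shared reads, were not searched. In the mirror image of a swap, the partner was lower in every off library than in every on library, within the same size limits. Over all partners, 68 transcripts had a swapping partner and 69 had a partner that moved together. By pairs, swaps were fewer, with 544 against 1030. Among entries within 5 rows of each other in the deposited files the counts parted, with 16 transcripts that had a swapping partner and 1 that had a partner moving together. The window of 5 rows was chosen after the data were seen. Such pairs were 2.94% of all swapping pairs and 0.0971% of those that moved together.

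The swapping neighbours were closer in length than other neighbours. The 16 swaps form 13 distinct pairs, with 18 of the 164 transcripts in them, and in 5 pairs both are on/off transcripts. In 10 pairs the entries were adjacent. Lengths differed by 7 to 564 bases, with a median of 52, and by at most 50 bases in 6 pairs. Over all 863 pairs of an on/off transcript with a candidate partner within 5 rows, the median difference was 1116 bases, and 7.65% of the pairs differed by at most 50. The labels do not say what the order of the entries means. For the 4 pairs of lowest variation at any distance, the entries lay 3832 to 25105 rows apart, and the partners, at a mean of 17.2 to 92.8 CPM, were far above their on/off transcripts.

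The sum of a near pair was steadier than its parts. The coefficient of variation of the sum over the 30 kidneys was 0.0737 to 0.434, with a median of 0.150, and it was under 0.2 in 10 of the 13 pairs. That of the on/off transcript was 0.629 to 1.89, with a median of 1.03. The definition of a swap favours a steady sum.

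ENSRNOT00000034907 and ENSRNOT00000080193, adjacent entries of 1099 and 1092 bases, gave the cleanest swap. ENSRNOT00000034907 held at least 90% of the pair's sum in 22 kidneys and at most 10% in 8, and in none did both hold more. In vehicle kidneys at 10 h it had 0.000648, 2.33, 2.53, 2.15 and 0.000569 CPM, and its partner 1.97, 0.00247, 0, 0.00022 and 2.72 CPM. All 5 low dose kidneys at 10 h were on the side of ENSRNOT00000034907, at 1.93 to 2.57 CPM, as were 4 of 5 high dose kidneys. At 34 h it had 0.00219 and 0.00116 CPM in 2 vehicle kidneys, 0.000328 CPM in 1 low dose kidney, and 0.000742 and 0.00186 CPM in 2 high dose kidneys. Each group but the low dose group at 10 h thus held animals of both sides. The sum was 2.29 ± 0.344 CPM (SD, n = 30). Opposite states were looked for among the 2323 pairs of on/off transcripts that had calls in at least 20 shared libraries. Pairs in which either transcript had fewer than 5 on or 5 off calls there were passed over, though the 2323 include them. ENSRNOT00000034907 and ENSRNOT00000080193 were the single pair found with opposite states throughout, in 21 of 21 libraries (19 of 19 without the 4 libraries taken as apart).

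ENSRNOT00000027275 and ENSRNOT00000092417, adjacent entries of 2639 and 2661 bases, summed to 5.14 ± 0.564 CPM (SD, n = 30). The first held at least 90% of the sum in 7 kidneys, at most 10% in 19, and an amount between in 4. In low dose kidneys at 10 h it had 0, 4.93, 4.72, 0 and 0 CPM, and its partner 4.35, 0.000566, 0.000297, 4.35 and 4.75 CPM. In high dose kidneys at 34 h it had 2.82 CPM in replicate 1 and at most 0.000125 CPM in the other 4. In all but 4 kidneys at least 90% of the sum thus lay on a single entry.

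ENSRNOT00000004235 and ENSRNOT00000075249, of 3920 and 3947 bases and 5 rows apart, were less divided. Their sum was 7.36 ± 1.09 CPM (SD, n = 30). The first held at least 90% in 8 kidneys, at most 10% in 7, and an amount between in 15. In vehicle kidneys at 10 h it had 6.85, 5.36, 4.59, 1.41 and 8.33 CPM, and its partner 0, 2.52, 2.4, 5.44 and 0.0041 CPM. In low dose kidneys at 34 h it had 0.739, 5.16, 1.87, 0.9 and 4 CPM. Mixed animals were thus as common as both extremes taken as 1 class. ENSRNOT00000068586 and ENSRNOT00000043197, of 3240 and 3153 bases, had 11 kidneys at each of the upper end and the middle and 8 at the lower end, with a sum of 2.25 ± 0.414 CPM.

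In 5 of the pairs the on/off transcript never held 90% of the sum. ENSRNOT00000066849 reached 8.11 CPM, at most 37.0% of a sum of 19.8 ± 1.46 CPM with ENSRNOT00000008819. ENSRNOT00000076784 held at most 34.0% of 27.8 ± 2.14 CPM, and ENSRNOT00000023877 at most 54.4% of 21.3 ± 2.10 CPM (SD, n = 30 each). In these pairs the partner was present in every kidney, and the on/off transcript took a part of the sum in some of them.

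**Figure D4:**
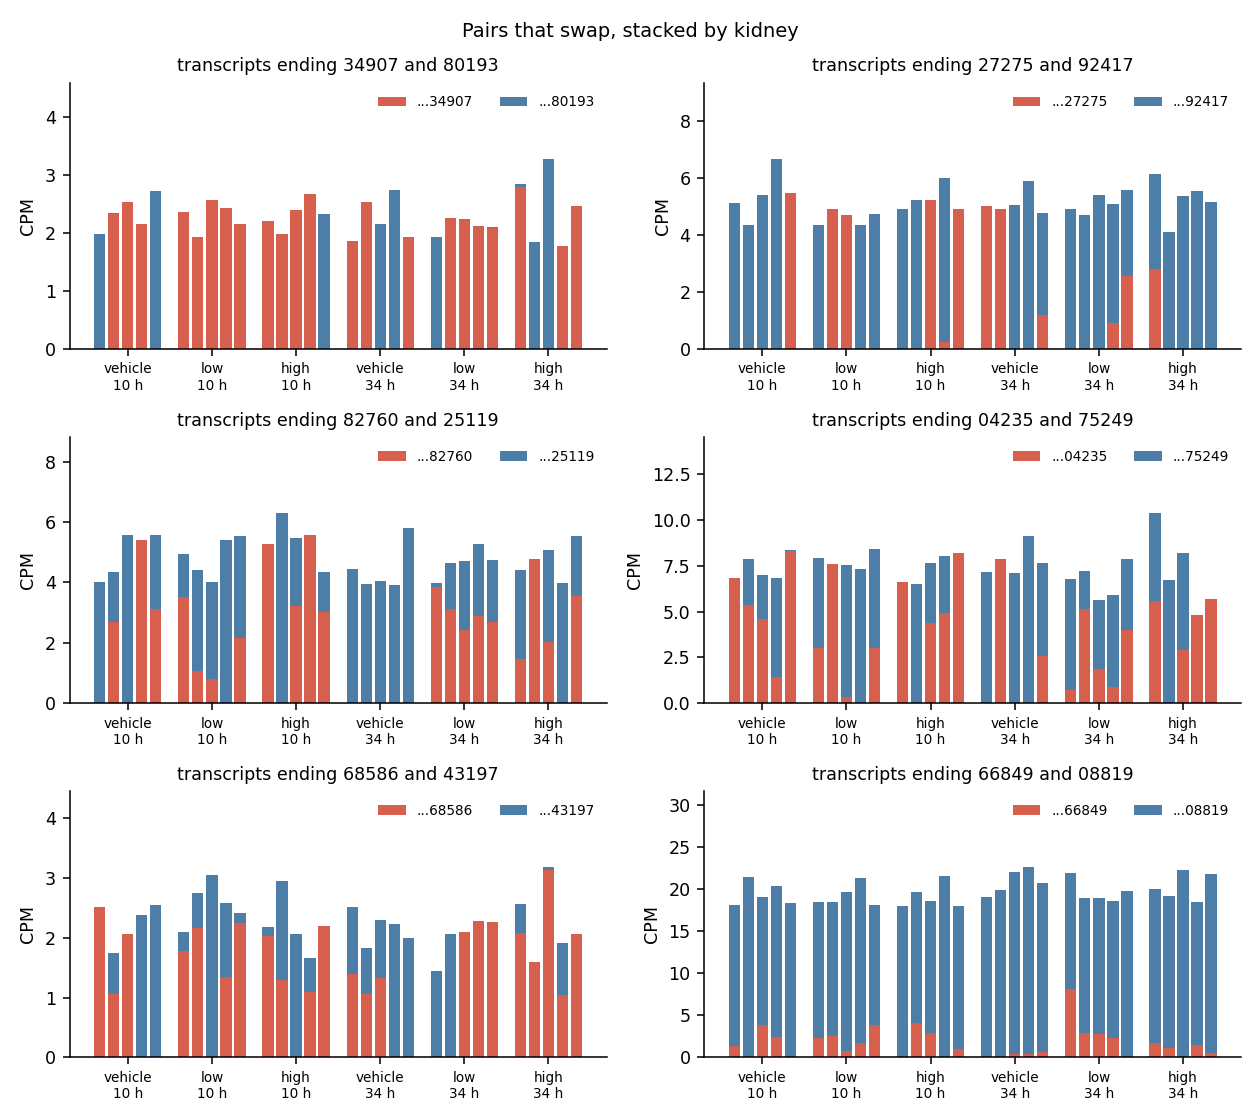
CPM of 6 near pairs in each of the 30 kidneys (bars, 5 per group, replicates 1 to 5), stacked so that the bar's height is the pair's sum. Red is the on/off transcript and blue its partner. The sum of ENSRNOT00000034907 and ENSRNOT00000080193 is 2.29 ± 0.344 CPM, and in no kidney do both parts hold more than 10% of it.

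The pair of ENSRNOT00000082760 and ENSRNOT00000025119, adjacent entries of 3844 and 3803 bases, differed between low dose and vehicle kidneys at 34 h. High dose kidneys at 34 h were mixed, with ENSRNOT00000082760 at 6.75e-07 to 100% of the sum. ENSRNOT00000082760 had 3.83, 3.13, 2.43, 2.87 and 2.69 CPM in low dose kidneys at 34 h, against at most 0.00694 counts in any vehicle kidney at 34 h. ENSRNOT00000025119 had 0.14, 1.52, 2.26, 2.41 and 2.05 CPM in the low dose kidneys, against 4.45, 3.94, 4.03, 3.91 and 5.8 CPM in the vehicle kidneys. The groups did not overlap for either entry. For ENSRNOT00000025119 this follows from the choice of swapping pairs, since ENSRNOT00000082760 was on in all low dose and off in all vehicle kidneys. The sum of the pair was 4.67 ± 0.467 CPM in low dose and 4.43 ± 0.801 CPM in vehicle kidneys (SD, n = 5 each). The split of the sum differed between the groups, while the sum differed by less than the spread between animals. The size limits set for a swap favour a similar sum.

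ENSRNOT00000082760 was the single on/off transcript called by edgeR's quasi-likelihood test in any of 7 comparisons. In low dose against vehicle kidneys at 34 h it rose, with an edgeR adjusted p of 0.000999. The mean of 2.99 ± 0.533 CPM was at least 28.1-fold higher than a floor of 3 counts per vehicle library. This comparison called 7 of 21112 transcripts (0.0332%), and the transcript was known to be among them. For ENSRNOT00000025119 the log2 fold change was -1.38 (SE 0.45) with an edgeR adjusted p of 0.268, which is no call. When the fit was repeated without any 1 of the 10 libraries, the edgeR adjusted p of ENSRNOT00000082760 was 0.00136 to 0.0103. In a single edgeR fit of all 30 libraries, whose spread includes the other groups, its adjusted p was 0.661. DESeq2 gave it no adjusted p in this comparison, and called it higher in high dose than in vehicle kidneys at 34 h, where edgeR did not (edgeR adjusted p = 0.822).

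The other groups were mixed for ENSRNOT00000082760. At 10 h it had 4.7e-05, 2.7, 0, 5.42 and 3.1 CPM in vehicle kidneys, 3.52, 1.05, 0.786, 7.9e-05 and 2.15 CPM in low dose kidneys, and 5.26, 0, 3.2, 5.55 and 3.01 CPM in high dose kidneys. High dose kidneys at 34 h had 1.45, 4.76, 2.01, 0 and 3.56 CPM. Both states occurred in vehicle kidneys at 10 h, which had the same treatment as those at 34 h. The low dose libraries at 34 h carry the numbers 46 to 50, and the vehicle libraries 43 to 45, 51 and 52.

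The comparisons between groups otherwise gave few differences among the on/off transcripts. In high dose against vehicle kidneys at 10 h, edgeR called 0 of the 164 (background over all transcripts 0.00474%), and 11 had an unadjusted edgeR p under 0.05 (6.71%, background 14.1%). DESeq2 called 1 of the 63 to which it gave an adjusted p (1.59%, background 6.26%). In low dose against vehicle kidneys at 10 h, edgeR called 0 (background 0%), DESeq2 called 1 of 155 (0.645%, background 0.403%), and 12 had an unadjusted edgeR p under 0.05 (7.32%, background 9.02%). In high dose against vehicle kidneys at 34 h, edgeR called 0 (background 0%), DESeq2 called 2 of 158 (1.27%, background 0.196%), and 13 had an unadjusted edgeR p under 0.05 (7.93%, background 5.52%). The first 2 of these shares at an unadjusted edgeR p were under the background and the last was above it.

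In low dose against vehicle kidneys at 34 h, 16 of the 164 had an unadjusted edgeR p under 0.05 (9.76%, background 14.3%), and DESeq2 called 0 of the 2 to which it gave an adjusted p (background 4.41%). High against low dose kidneys at 10 h had 0 edgeR calls (background 0%), 2 DESeq2 calls of 51 (3.92%, background 7.5%) and 15 at an unadjusted edgeR p under 0.05 (9.15%, background 17.2%). At 34 h the same contrast had 0 edgeR calls (background 0%), 1 DESeq2 call of 160 (0.625%, background 0.0192%) and 7 at an unadjusted edgeR p under 0.05 (4.27%, background 3.21%). Vehicle kidneys at 34 h against those at 10 h had 0 edgeR calls (background 0.00474%), 4 DESeq2 calls of 113 (3.54%, background 0.778%) and 9 at an unadjusted edgeR p under 0.05 (5.49%, background 9.66%).

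The error of these comparisons was large. The transcripts were chosen for being both on and off, which widens the spread within groups. This bears on every share set against the background. The median size of the log2 fold change over the 164 transcripts was 0.55 to 0.94 in the 7 comparisons, with a median SE of 1.30 to 1.45. Over all transcripts tested, the median size was 0.12 to 0.19 and the median SE 0.13 to 0.18. At 10 h each group is an unbroken run of library numbers, so that group and run cannot be told apart there.

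Few transcripts had groups that did not overlap. Values were compared without a floor, so that groups could also part by values that were off on both sides. For high dose against vehicle kidneys at 10 h the number was 3 of 164 (1.83%, background 3.57%). For low dose against vehicle kidneys it was 1 at 10 h (0.610%, background 1.23%) and 3 at 34 h (1.83%, background 2.55%). For high dose against vehicle kidneys at 34 h it was 1 (0.610%, background 1.1%). High against low dose kidneys had 2 at 10 h (1.22%, background 3.55%) and 0 at 34 h (background 0.478%), and vehicle kidneys at 34 h against 10 h had 1 (0.610%, background 1.64%). All of these shares were under the background. The choice of transcripts that were both on and off favours overlap, so that this is not a finding about dose or time. Without the 4 libraries taken as apart, and so with smaller groups, the count for high dose against vehicle kidneys at 10 h was 11 (6.71%, 8.09% over all transcripts).

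A pair of these, chosen after their values were seen, shows the range. ENSRNOT00000057587, at 348 bases the shortest of the 164, had 0, 0, 0.0688, 0 and 0 CPM in high dose kidneys at 10 h, against 0.0819, 21.2, 2.22, 24.5 and 0.166 CPM in vehicle kidneys at 10 h. All high dose kidneys were below all vehicle kidneys, although 2 of the vehicle kidneys were at 0.166 CPM or less, and the edgeR adjusted p was 0.206. At 34 h it had 0.065, 18.2, 28.9, 12 and 0 CPM in high dose kidneys, against at most 0.166 CPM in vehicle kidneys, so that 3 high dose kidneys were above all vehicle kidneys (edgeR adjusted p = 0.822). DESeq2 called it lower in high dose kidneys at 10 h and higher at 34 h. ENSRNOT00000029458 had 0.00262, 4.82, 2.54, 2.48 and 3.99 CPM in high dose kidneys at 10 h, and at most 0.000347 CPM in vehicle kidneys at 10 h (edgeR adjusted p = 0.209). The lowest high dose and the lowest low dose kidney at 10 h were off, as were all vehicle kidneys at 10 h. For this transcript the groups were thus parted by values under 0.5 counts. Vehicle kidneys at 34 h had 5.42, 0.0003, 3.27, 7.48 and 3.11 CPM of it. The vehicle kidneys at 10 h are shared by both dose comparisons at that time.

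The 4 transcripts of highest level varied over orders of magnitude. ENSRNOT00000020002 (3275 bases) was on in 23 kidneys, at 2.14 to 167 CPM, and off in 5. In high dose kidneys it had 0, 0, 28.9, 1.27 and 9.43 CPM at 10 h and 29.5, 51.5, 1.9e-05, 74.6 and 0.00186 CPM at 34 h. Vehicle kidneys at 34 h had 34.1, 70.0, 2.4e-05, 10.3 and 167 CPM. All low dose kidneys were on, at 7.68 to 110 CPM at 10 h and 5.54 to 47.6 CPM at 34 h. The entry before it in the files, ENSRNOT00000092125, had 449 to 1427 CPM and was never off.

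ENSRNOT00000066282 (1376 bases) had a gap in its levels. It was on in 7 kidneys at 15.7 to 65.7 CPM, and in the other 23, of which 10 lay between and 13 were off, it was at most 0.707 CPM. At 10 h it had 0, 0.707, 0.0361, 37.6 and 0 CPM in vehicle kidneys, 29.7, 0.125, 0, 15.7 and 19.7 CPM in low dose kidneys, and 41.7, 0.337, 65.7, 0.31 and 0.172 CPM in high dose kidneys. At 34 h only vehicle replicate 5 was on, at 16.7 CPM, and the highest low and high dose kidneys had 0.0992 and 0.0721 CPM. On animals were thus found in each group at 10 h, and at 34 h in the vehicle group alone.

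ENSRNOT00000086293 (847 bases) was on in 20 kidneys at 2.92 to 63.1 CPM, with a median of 28.3 CPM. In vehicle kidneys at 10 h it had 33.0, 43.0, 25.5, 28.2 and 0 CPM. In high dose kidneys it had 55.2, 0.357, 28.4, 31.4 and 63.1 CPM at 10 h and 25.0, 22.1, 0, 0.712 and 0.0807 CPM at 34 h. Animals under 1 CPM, not all of them off, occurred in 5 of the 6 groups, and in low dose kidneys at 34 h its lowest level was 1.53 CPM. Replicate 2 of the high dose group at 10 h was again the animal that differed from the rest of its group.

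ENSRNOT00000015190 (3023 bases) was high in 3 kidneys, vehicle replicate 2 at 10 h with 89.3 CPM, high dose replicate 5 at 34 h with 28.5 CPM and low dose replicate 4 at 34 h with 11.3 CPM. In the other 27 it had at most 2.45 CPM. The entry before it, ENSRNOT00000081484 (3334 bases), reached 75.9 CPM at its highest. Vehicle replicate 2 at 10 h is 1 of the 4 libraries taken as apart, although over all transcripts it was within the range of the others.

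**Figure D5:**
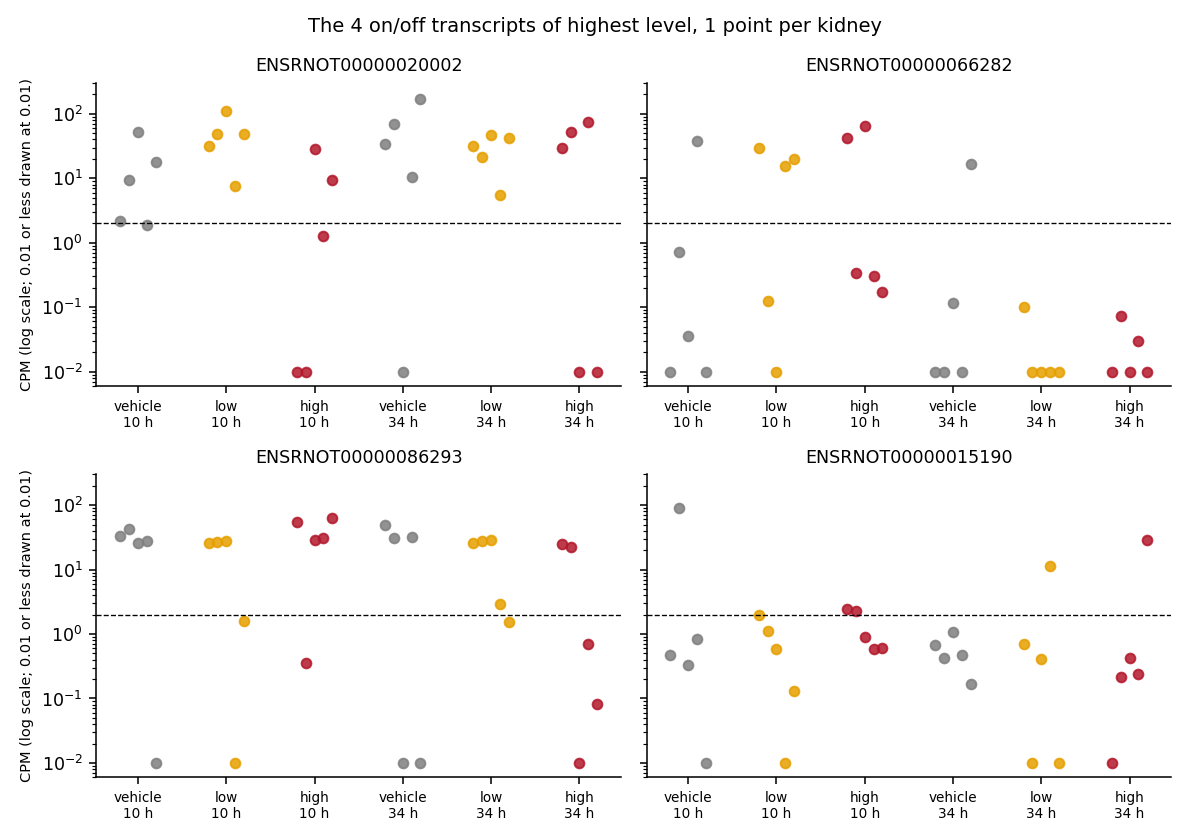
CPM on a log scale (y axis) of the 4 on/off transcripts of highest mean level over their on libraries, 1 point per kidney, by group. Values of 0.01 or less are drawn at 0.01, and the dashed line marks 2 CPM. ENSRNOT00000066282 shows a gap, with 7 kidneys at 15.7 CPM or more and 23 at 0.707 CPM or less.

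Few pairs of transcripts were found on and off together. Of the 2323 pairs with calls in at least 20 shared libraries, 4 had the same state in all of these libraries or in all but 1. ENSRNOT00000090794 and ENSRNOT00000087129 had the same state in 23 of 23 libraries, although their entries lay 739 rows apart (20 of 20 without the 4 libraries taken as apart). ENSRNOT00000079090 and ENSRNOT00000087919 had the same state in 22 of 22, ENSRNOT00000085534 and ENSRNOT00000087919 in 20 of 20, and ENSRNOT00000084058 and ENSRNOT00000008934 in 19 of 20.

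These linked transcripts were on in the animal that stood apart in the high dose group at 10 h. ENSRNOT00000090794 had 9e-06, 11.5, 0, 0 and 0 CPM in high dose kidneys at 10 h, against 0, 1.09, 9.87, 7.57 and 0.474 CPM in vehicle kidneys at 10 h. ENSRNOT00000087129 had 0, 10.7, 0.00182, 0 and 0 CPM in the high dose kidneys, against 0.0433, 1.47, 5.87, 6.47 and 0.331 CPM in the vehicle kidneys. Replicate 2 was thus the single high dose kidney on for either transcript at 10 h, and without it the high dose group was off for both. At 34 h all 5 low dose and all 5 high dose kidneys were on for both, ENSRNOT00000090794 at 3.88 to 12.1 CPM in low dose and 4.02 to 13.5 CPM in high dose kidneys. Among vehicle kidneys at 34 h, ENSRNOT00000090794 had 0.53, 6.91, 0, 0 and 12.8 CPM.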

How the data were processed

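Per the file headers, the deposited files give estimated counts, TPM values and lengths of 65166 targets in each of 30 libraries: 40071 Ensembl transcripts and 25095 genomic intervals. Per the submitters' processing notes, the estimated counts come from kallisto 0.42.2 with the build Rnor 6.0. The deposited TPM values, which keep no depth, were not used for any reported value. Counts were taken as deposited. CPM is the estimated count divided by the sum over transcripts of the library, so that intervals (5.82 to 9.23% of counts) are left out.

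Estimated counts were rounded to whole numbers for edgeR 4.0.16 (quasi-likelihood, robust, TMM, filterByExpr over 30 libraries, 21112 kept, with all 164 on/off transcripts) on the groups compared, in R 4.3.3. P values were adjusted over all of these by Benjamini-Hochberg, and an adjusted p under 0.05 was a call. SE is the size of the log2 fold change divided by the square root of F. DESeq2 1.42.0 was an alternative. The steps were tested on simulated data. Plots and counts were made in Python 3.11.15.

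The on/off transcripts and the lists were chosen with earlier results of these data known. Named transcripts are the 4 of highest level, the members of linked and of swapping pairs, those called and those at the limits. Gene lists and cell type markers were not run, since 0 of 47357 reference genes carry an Ensembl transcript ID. No sequence is printed.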

Additional observations from a re-analysis of the deposited data

Results flagged for a closer look

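Of 114 groups of 5 values looked at, 9 had a highest or lowest animal far from the other 4. For normally distributed values chance alone gives about 1 in 20. That rate does not hold for on/off transcripts and sums of selected pairs, so that the 9 cannot be set against it. Among sums of near pairs, ENSRNOT00000027275 with ENSRNOT00000092417 was highest in vehicle replicate 4 at 34 h (5.89 CPM, next 5.07 CPM). ENSRNOT00000082760 with ENSRNOT00000025119 was highest in vehicle replicate 5 at 34 h (5.80 CPM, next 4.45 CPM). ENSRNOT00000068586 with ENSRNOT00000043197 was lowest in low dose replicate 1 at 34 h (1.44 CPM, next 2.07 CPM).

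ENSRNOT00000066282 stood alone in vehicle replicate 4 at 10 h (37.6 CPM), in vehicle replicate 5 at 34 h (16.7 CPM) and in low dose replicate 1 at 34 h (0.0992 CPM, where the other 4 had 0). ENSRNOT00000015190 stood alone in vehicle replicate 2 at 10 h (89.3 CPM), in low dose replicate 4 at 34 h (11.3 CPM) and in high dose replicate 5 at 34 h (28.5 CPM). Animals with a value far from the rest of their group are what the choice of on/off transcripts selects for.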

How the results depend on the processing

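The number of on/off transcripts, 164, depended on the limits: it was 84 with off at exactly 0, 350 with on from 1 CPM, 52 with on from 5 CPM, 361 with 3 libraries of each state and 65 with 8. Leaving out each library gave 152 to 161. No paired analysis was possible because the labels give the groups no shared replicate numbers.

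Calls over all transcripts moved with the tool. For high dose against vehicle at 10 h edgeR called 1, with size factors of DESeq2 0, without a filter 0, without the 4 libraries taken as apart 0, in the fit of all 30 libraries 62, and DESeq2 975. For low dose against vehicle at 10 h DESeq2 called 76, against 0. For high dose against vehicle at 34 h it called 41, and edgeR without a filter 1, against 0. For low dose against vehicle at 34 h DESeq2 called 443 and the fit of all libraries 0, against 7. For high against low dose at 10 h DESeq2 called 1120, the fit of all libraries 674 and the fit without the 4 libraries taken as apart 184, against 0. At 34 h DESeq2 called 4, against 0. For vehicle at 34 h against 10 h DESeq2 called 131, the fit of all libraries 0 and that without the 4 libraries taken as apart 0, against 1. The cause was not tested. The covariate for the run of library numbers could be fitted for high dose against vehicle at 34 h alone (0 calls); for high against low dose at 34 h it was not run.

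Leaving out each library in turn gave 0 to 1 calls for high dose against vehicle at 10 h, 0 to 3 for low dose against vehicle at 10 h, 0 to 1 and 1 to 4 for the same at 34 h. High against low dose at 10 h had 0 to 202: 202 without low dose replicate 4 and 184 without high dose replicate 2. High against low dose at 34 h had 0, and vehicle at 34 h against 10 h 0 to 2.

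Among the on/off transcripts DESeq2 called 1, 1, 2 and 0 against vehicle (high and low dose at 10 h, high and low dose at 34 h), 2 and 1 for high against low dose at 10 and 34 h, and 4 between vehicle groups. The fit of all libraries called 0 in low dose against vehicle at 34 h and 1 in high against low dose at 10 h, which also had 1 without the 4 libraries taken as apart. Leaving out each library gave 0 to 1 in high dose against vehicle at 34 h, 1 to 2 in low dose against vehicle at 34 h and 0 to 1 in high against low dose at 10 h. The log2 fold change of ENSRNOT00000082760 in low dose against vehicle at 34 h was 9.49 with no call in the fit of all libraries, and 9.38 to 9.45 with libraries left out. This fitted value depends on a prior count.

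Without the 4 libraries taken as apart, the on/off transcripts whose groups did not overlap were 11 (6.71%, against 8.09% over all transcripts) and 2 (1.22%, 2.30%) for high and low dose against vehicle at 10 h and 5 (3.05%, 3.99%) for high dose against vehicle at 34 h. They were 5 (3.05%, 8.31%) and 3 (1.83%, 2.52%) for high against low dose at 10 and 34 h, and 2 (1.22%, 2.14%) for the vehicle groups. On/off transcripts with a swapping partner within 5 rows numbered 16, and 12 to 18 with other windows, limits or levels, which were chosen after seeing the data, against 0 to 3 with a partner moving together. Over all distances the 2 counts were 61 to 84 and 60 to 79. Depth limits the on call to at least 40.3 counts and leaves lower levels between.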
